A study of Homo sapiens with 2 samples.

Results

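The ZFP36 genes (ZFP36, ZFP36L1 and ZFP36L2) and the BTG and TOB genes (BTG1, BTG2 and TOB1) encode proteins that shorten the life of messenger RNAs, and the acetylation of histone H3 at lysine 27 (H3K27ac) around them was described in LOUCY, an established human line of T-cell acute lymphoblastic leukaemia (T-ALL). The mark was mapped by chromatin immunoprecipitation and sequencing (ChIP-seq) in 1 library, and peaks were called against 1 library of input DNA from the same line. Both came from cells in ordinary serum-containing medium, with no treatment or altered gene named in the labels. A peak was counted for a gene if it touched the gene body, taken to the nearest kb in the hg19 build, or the 50 kb on either side. Distances from a gene are from these rounded ends. This gave 35 of the 52203 peaks of the list. The genes were chosen from this same peak list with its values in view, so their folds and widths are descriptions and no test was made of them.

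H3K27ac marks active promoters and enhancers, and broad or densely clustered peaks are often seen at genes that define a cell's identity. ZFP36 proteins bind AU-rich elements in the 3′ untranslated regions of short-lived messages through CCCH zinc fingers and bring in the CCR4-NOT complex, which removes the poly(A) tail. BTG and TOB proteins bind the deadenylase subunits of that same complex, and TOB1 also binds poly(A)-binding protein. In T cells, both families are known for holding back growth: BTG1 and BTG2 maintain resting T cells, TOB1 restrains their proliferation, and mice that lack ZFP36L1 and ZFP36L2 in developing thymocytes develop T-cell leukaemia. ZFP36, also called tristetraprolin, limits the messages of inflammatory cytokines.

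After the caller had removed repeated positions, 54357332 of 62626946 ChIP tags and 71932640 of 74212738 input tags were in use. With 1 library each, no value has a replicate check. The fold of a peak is its ChIP signal over the local input level, as given by the authors' peak caller, with 1 value for the whole peak. The median peak of the list had a fold of 3.08 and a width of 1670 bp. The bands of the T-cell receptor genes held some of the strongest peaks of the library, with a highest fold of 26.4 (rank 2) in 7q34 and of 19.0 (rank 17) in 14q11.2. The marker genes of other cell types and the other genes of the RNA-decay machinery, such as the CCR4-NOT subunits, were not analysed here, since the positions at hand covered only the 6 genes.

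Every gene body was touched by a peak, as were 12.0% of all 5 kb tiles of the genome, and at each of the 6 genes the peak at the gene was the strongest of its window. These 6 peaks, taking the stronger of a pair at BTG1, had folds from 8.37 to 13.9 with a median of 12.5, while the 28 window peaks off the genes had a median of 2.83. Folds at the genes differed by 1.67 times between the highest and the lowest, but widths differed by 16.2 times, from 3678 bp at BTG1 to 59516 bp at BTG2. Widths also range more widely than folds over the list as a whole. Of the 6 peaks, 4 had a fold of 10 or more (ZFP36, ZFP36L1, ZFP36L2 and TOB1) and 4 were 10000 bp or wider (ZFP36, ZFP36L1, ZFP36L2 and BTG2). The 3 ZFP36 genes had both, BTG2 had width alone, TOB1 had fold alone and BTG1 had neither.

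**Figure D1:**
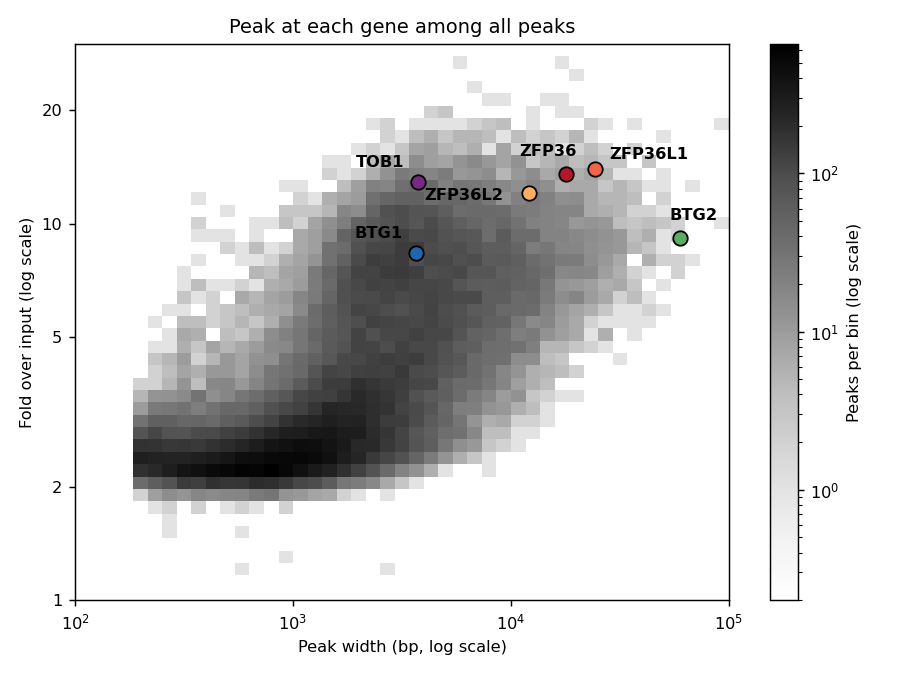
Width in bp (x axis, log scale) and fold over input (y axis, log scale) of all 52203 peaks, as shaded bins, with the stronger peak at each gene as a coloured point. ZFP36, ZFP36L1 and ZFP36L2 lie at high fold and high width, BTG2 lies near the right edge at 59516 bp, and BTG1 (3678 bp, fold 8.37) and TOB1 (3725 bp, fold 12.9) stand one above the other.

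Among all window peaks, 6 of 35 had a fold of 10 or more (17.1%, against 5.21% of all peaks) and 8 of 35 were 10000 bp or wider (22.9%, against 4.37%). Weak peaks were as common near these genes as elsewhere, with 16 of 35 below a fold of 3 (45.7%, against 48.2%). Since the genes were picked for their peaks, the higher shares are no evidence about RNA-decay genes in general. Windows with a peak of fold 10 or more numbered 4 of 6, while 8.10% of all 100 kb tiles of the genome held such a peak. Those tiles are not centred on genes, which the windows are.

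The gene body positions can be read beside the sequences at which transcription starts. RefSeq promoter sequences were matched for 5 of the 6 genes, with a pair of start sites each for ZFP36L1 and TOB1; ZFP36L2 had no match. The 250 bases before a start site are shown for 6 of the 7, 1 or more for each matched gene, to set the CpG-rich and CpG-poor starts and the motifs below side by side; the outer ZFP36L1 start is given by its counts alone. Capitals mark the CCAAT box (CCAAT), the TATA box (TATAAA) and the core of the cAMP response element (TGACG), searched on both strands. The sequences are from RefSeq on GRCh38.p14, and their positions in that build do not compare with the hg19 positions of the peaks.

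ZFP36, chr19:39406597-39406846, plus strand: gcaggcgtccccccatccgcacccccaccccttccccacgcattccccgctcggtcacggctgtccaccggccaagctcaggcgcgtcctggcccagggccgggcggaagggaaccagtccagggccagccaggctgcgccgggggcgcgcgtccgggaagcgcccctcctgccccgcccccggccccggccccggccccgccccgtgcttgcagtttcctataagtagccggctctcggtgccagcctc
ZFP36L1, inner start site, chr14:68793417-68793666, minus strand: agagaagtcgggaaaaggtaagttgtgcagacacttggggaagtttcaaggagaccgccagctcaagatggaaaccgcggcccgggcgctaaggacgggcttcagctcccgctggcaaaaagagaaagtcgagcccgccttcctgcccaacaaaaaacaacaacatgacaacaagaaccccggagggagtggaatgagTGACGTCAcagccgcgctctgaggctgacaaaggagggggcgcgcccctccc
BTG1, chr12:92145847-92146096, minus strand: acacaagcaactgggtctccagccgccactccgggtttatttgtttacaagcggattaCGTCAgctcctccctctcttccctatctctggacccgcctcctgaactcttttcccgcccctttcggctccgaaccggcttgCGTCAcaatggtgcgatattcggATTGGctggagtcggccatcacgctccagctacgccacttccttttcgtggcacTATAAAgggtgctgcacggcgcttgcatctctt
BTG2, chr1:203305269-203305518, plus strand: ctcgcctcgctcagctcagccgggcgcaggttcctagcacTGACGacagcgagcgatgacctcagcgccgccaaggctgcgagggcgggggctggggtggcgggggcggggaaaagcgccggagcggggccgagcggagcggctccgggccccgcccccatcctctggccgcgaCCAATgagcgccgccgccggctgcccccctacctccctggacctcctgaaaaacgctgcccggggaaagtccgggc
TOB1, outer start site, chr17:50867979-50868228, minus strand: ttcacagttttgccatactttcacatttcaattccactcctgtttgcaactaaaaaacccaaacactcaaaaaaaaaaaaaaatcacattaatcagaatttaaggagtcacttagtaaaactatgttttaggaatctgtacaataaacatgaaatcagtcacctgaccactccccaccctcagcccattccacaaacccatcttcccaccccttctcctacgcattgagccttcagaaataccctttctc
TOB1, inner start site, chr17:50866355-50866604, minus strand: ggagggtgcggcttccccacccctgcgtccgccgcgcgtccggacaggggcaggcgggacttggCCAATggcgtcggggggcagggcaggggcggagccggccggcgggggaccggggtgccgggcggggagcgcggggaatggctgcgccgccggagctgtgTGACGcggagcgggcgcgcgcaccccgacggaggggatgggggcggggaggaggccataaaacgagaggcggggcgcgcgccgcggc

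The letters TGACG, the core of the element bound by CREB and ATF factors, was present before 5 of the 7 start sites of the matched genes, those of BTG1, BTG2, both of ZFP36L1 and the inner one of TOB1. It was present before 21.2% of all 35114 RefSeq start sites. These letters hold a CpG, and that share was not matched for CpG content. BTG1 had it at 192 to 188 and at 110 to 106 bases before its start, and the inner ZFP36L1 start had a forward and a reverse copy that overlap, 52 to 45 bases before it. The CCAAT box was present before 4 of the 7, those of BTG1, BTG2, the outer one of ZFP36L1 and the inner one of TOB1, and before 32.0% of all. BTG1 was the only 1 of the 7 with a TATA box, 33 to 28 bases before its start (10.7% of all). The GC box GGGCGG was present before 4 of the 7 (42.6% of all) and was found 3 times each at ZFP36, BTG2 and the inner TOB1 start. The E-box CANNTG was present before 4 of the 7 (61.8% of all). The ETS core CCGGAAG (8.52% of all), the RUNX site TGTGGT (11.0%), the GATA site AGATAA (9.17%), the STAT site TTCNNNGAA (6.57%), the NF-kB site (9.96%), the CArG box of serum response factor (1.16%) and the decamer of the p53 element (5.57%) were not among the letters of these 7 windows. A match is a description of the letters and was not tied to binding.

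The start sites also differed in CpG content. The inner TOB1 start had 38 CpG dinucleotides in 250 bases, more than 96.7% of all RefSeq start sites, and the outer one, 1624 bp upstream of it, had 1. BTG2 had 30, ZFP36 26, BTG1 18 and the 2 ZFP36L1 starts, 2827 bp apart, 8 (outer) and 16 (inner), beside a median of 11 over all RefSeq start sites.

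Around ZFP36, in the gene-dense band 19q13.2 (gene body chr19:39897000-39900000, plus strand), 6 peaks lay in the window. The peak at the gene (chr19:39887868-39905778) spanned 17911 bp and reached a fold of 13.5. It ranked 409 in the list and 28 among the 1780 peaks of chromosome 19, the chromosome with a median fold of 5.26. It covered the whole gene body and ran 9.13 kb past the start and 5.78 kb past the end. A second peak, 13.3 kb upstream (chr19:39880398-39883702), had a fold of 7.98. On the downstream side, peaks 24.4 and 35.0 kb from the gene were 3016 and 2346 bp wide, with folds of 11.1 and 11.9. ZFP36 was the only 1 of the 6 genes with further peaks of fold 10 or more in its window. In the RefSeq gene order its nearest protein-coding neighbours are MED29, a Mediator subunit, and PAF1, a transcription elongation factor, on one side and PLEKHG2 and RPS16, a ribosomal protein gene, on the other. The separate strong peaks were not assigned to any of them, and whether the wide peak at ZFP36 also reaches them was not tested.

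ZFP36L1 lay in 14q24.1 (gene body chr14:69254000-69263000, minus strand) and had 13 peaks in its window, the most of the 6 genes. A tile of 100 kb with a peak held a median of 3. The peak at the gene (chr14:69244091-69268284) had the highest fold of the 6, 13.9, rank 323 of all and rank 10 of the 1804 peaks on chromosome 14. At 24194 bp it ranked 303 by width, with a -log10 p of 102 from the caller, and it spanned the whole body. It ended 5.28 kb upstream of the gene and reached 9.91 kb past its 3′ end. Next in fold in the window were a 12374 bp peak 16.2 kb upstream (fold 8.22) and a 5644 bp peak 26.3 kb downstream (fold 7.78). Of the other 10 peaks of the window, 7 were weak, with folds below 3.

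**Figure D2:**
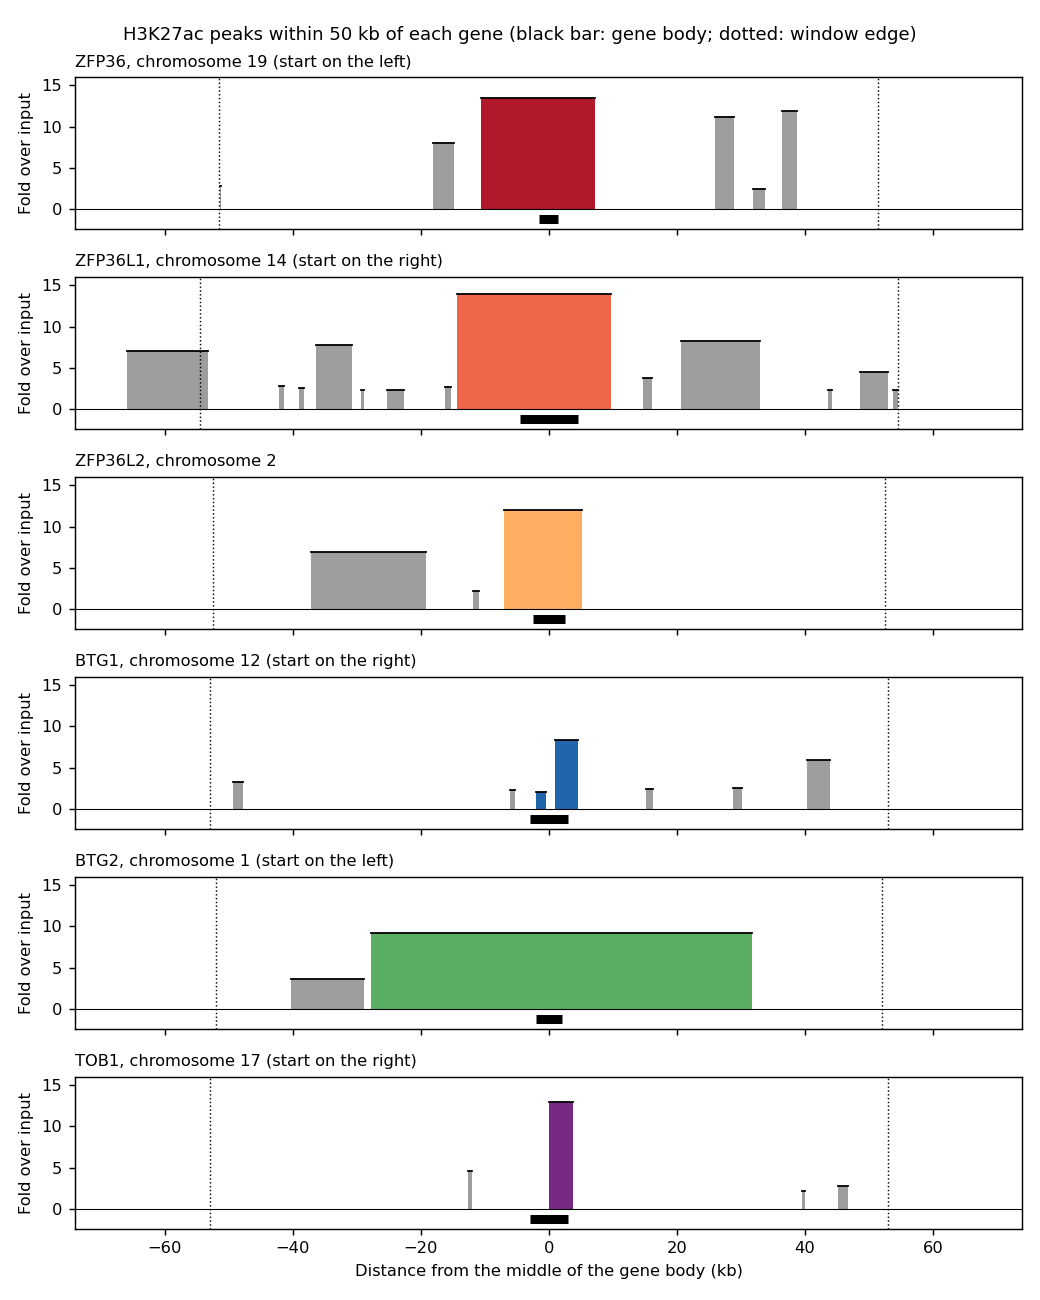
Peaks in the window of each gene, with the distance from the middle of the gene body in kb on the x axis and the fold over input on the y axis. Coloured blocks are peaks that touch the gene, grey blocks are the other window peaks, black bars are gene bodies and dotted lines are window edges. The BTG2 block is the widest at 59516 bp and the ZFP36L1 block the highest at a fold of 13.9.

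A wider stretch around ZFP36L1 (chr14:69000000-69400000) was covered by 43 peaks over 47.3% of its length. Of these, 42 fell in a single domain when peaks within 12500 bp were joined (chr14:69005776-69332756, 327 kb), which ranked 7 of 25510 such regions by summed fold times width. Its median gap between peaks was 1873 bp and its longest gap 11110 bp. ZFP36L1 held the peak of highest fold and the widest peak of the stretch, and that 1 peak made up 12.8% of the covered sequence and 27.1% of the summed fold times width. Of the other 41 peaks of the domain, 26 had a fold below 3 and 6 had a fold of 6 or more. The 26 weak ones held 6.78% of the summed fold times width of the domain.

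The stretch holds 254 kb downstream of ZFP36L1 and 137 kb upstream, so the sides differ in length. Downstream, where the RefSeq order has the noncoding RNA gene RAD51B-AS1, 32 peaks covered 130 kb and reached 247 kb from ZFP36L1. They had folds from 2.18 to 7.78, with a median of 2.66, and held 51.5% of the summed fold times width. Upstream, on the side of ACTN1, which encodes the cytoskeletal protein alpha-actinin, 10 peaks covered 34.9 kb. Counting only peaks off the gene, the summed fold times width per kb was 2.53 downstream and 1.95 upstream. These peaks covered 51.3% and 25.4% of the sides, and the gene's own peak covered a further 9.91 kb and 5.28 kb. Within 50 kb of the gene the order was turned, with 12.5 kb covered downstream and 19.5 kb upstream by peaks off the gene. An upstream peak just beyond that limit had a fold of 11.5, the second highest of the stretch (chr14:69313948-69324455, 10508 bp, 50.9 kb from the gene). The other peaks among the first 5 by fold were those 16.2 kb upstream and 26.3 kb downstream and a 17817 bp peak 94.7 kb downstream (chr14:69141445-69159261, fold 7.77). The widest after the gene's own were a 19383 bp peak 114 kb downstream (fold 4.98) and that same 17817 bp peak. Which of the genes in the stretch these peaks belong to was not tested. The RefSeq order goes by gene starts, so a long gene that begins outside the stretch and runs into it may not show.

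**Figure D3:**
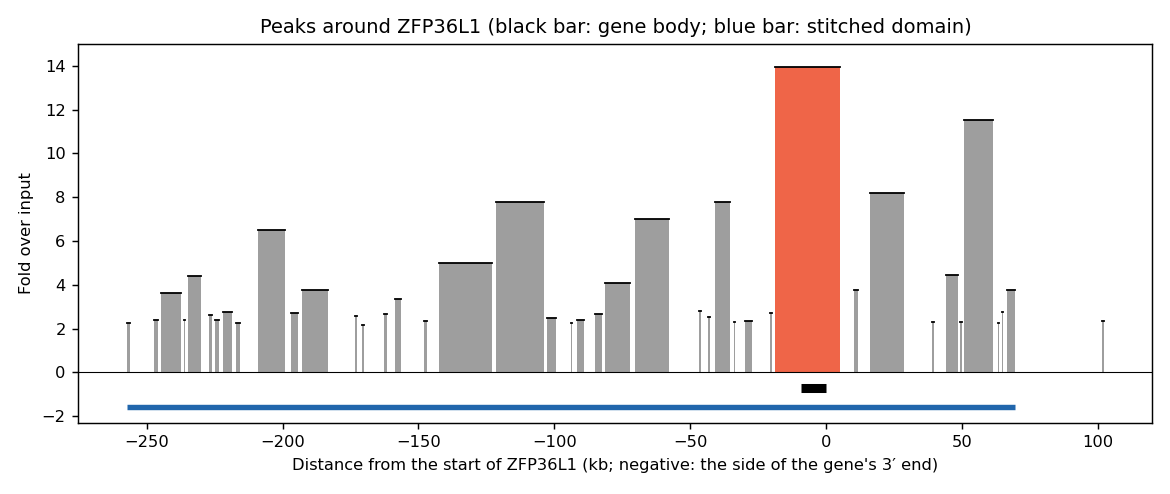
Peaks of the stretch around ZFP36L1, with the distance from the start of the gene in kb on the x axis (negative towards the 3′ end and beyond) and the fold over input on the y axis. The coloured block is the peak at the gene (fold 13.9), the black bar the gene body and the blue bar the joined domain of 327 kb, with 32 peaks on the downstream side and 10 upstream.

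ZFP36L2, in 2p21 (gene body chr2:43449000-43454000), had only 3 peaks in its window, all of them on or to the lower-coordinate side of the gene. The peak at the gene (chr2:43444579-43456673) spanned 12095 bp at a fold of 12.1 and ranked 927 by fold. It covered the whole body with 4.42 kb and 2.67 kb to spare on either side. The widest peak of the window was not this one but a weaker neighbour 16.8 kb away (chr2:43414380-43432250), 17871 bp wide with a fold of 6.98. ZFP36L2 was in this way the only 1 of the 6 genes whose own peak was not the widest of its window. Between the pair lay a peak of 863 bp with a fold of 2.20. On the other side, where the RefSeq order has LINC01126 and THADA, the next peak came only 15.9 kb beyond the edge of the window (fold 3.55). Whether the peak at ZFP36L2 also reaches LINC01126 was not tested.

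BTG1, in 12q21.33 (gene body chr12:92534000-92540000, minus strand), carried the weakest mark of the 6 by fold. A pair of peaks touched the gene. The stronger (chr12:92537944-92541621) spanned 3678 bp at a fold of 8.37, which ranked 5579, and lay over the 5′ end of the rounded body. The weaker (chr12:92534932-92536622), inside the gene towards its 3′ end, spanned 1691 bp at a fold of 2.11, which ranked 50468, near the bottom of the list. Together they covered 62.5% of the gene body. A further peak of note lay 37.4 kb upstream (chr12:92577404-92580881, 3478 bp, fold 5.89), and the other 4 peaks of the window had folds from 2.26 to 3.33. In the RefSeq order BTG1 sits among long noncoding RNA genes, with BTG1-DT, a divergent transcript, next to its start. H3K27ac does not show the direction of transcription, so the mark at the start cannot be told apart between the gene and that transcript.

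BTG2, a p53-inducible gene in 1q32.1 (gene body chr1:203275000-203279000, plus strand), showed the opposite arrangement, with the mark called as nearly 1 unbroken block. Its peak (chr1:203249164-203308679) was 59516 bp wide, rank 7 of all 52203 peaks by width, and started 25.8 kb upstream of the gene and ended 29.7 kb past its end. Its fold of 9.17, 1 value for the whole width, ranked 3969. The only other peak of the window (chr1:203236680-203248201) was 11522 bp wide, had a fold of 3.68 and ended 962 bp before the wide one began. The pair covered 68.3% of the window, more than in 99.7% of the 100 kb tiles that held a peak. No further peak was called until 149 kb beyond the far edge of the window, and the nearest outside on the upstream side, 22.9 kb beyond the edge, had a fold of 2.38. The RefSeq order places BTG2-DT before the gene and FMOD, the gene of the matrix protein fibromodulin, after it. As at BTG1, the mark cannot be told apart between BTG2 and BTG2-DT.

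TOB1, in 17q21.33 (gene body chr17:48939000-48945000, minus strand), had a narrow and strong peak instead. At 3725 bp (chr17:48942065-48945789) it was nearly as narrow as that of BTG1, yet its fold of 12.9 ranked 571 of all peaks and 53 of the 2377 peaks on chromosome 17. It lay over the 5′ end of the body as rounded and 2936 bp into it. RefSeq places the CpG-rich inner start 1624 bp inside the outer one, in its own build. The rest of the gene body, towards its 3′ end, was outside the peak. The other 3 peaks of the window were weak or narrow. A 597 bp peak 8.98 kb downstream had a fold of 4.64, and the 2 upstream ones, 36.6 and 42.1 kb away, had folds of 2.14 and 2.75. TOB1-AS1 is next to the start of TOB1 in the RefSeq order, and the mark cannot be told apart between them for the same reason as at BTG1.

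Covered length set the 6 windows further apart. Peaks covered 68.3% of the window of BTG2, 51.5% of that of ZFP36L1, 29.4% of that of ZFP36L2, 28.0% of that of ZFP36, 12.8% of that of BTG1 and 6.05% of that of TOB1. The median tile with a peak was covered to 5.36% (interquartile range 2.26 to 12.0). TOB1 was thus near that median, above 54.0% of tiles, and BTG1 was above 76.4%, while the 4 others were each above at least 92.6%. The number of peaks did not follow the same order: BTG2 had the highest coverage and, with 2, the fewest peaks.

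**Figure D4:**
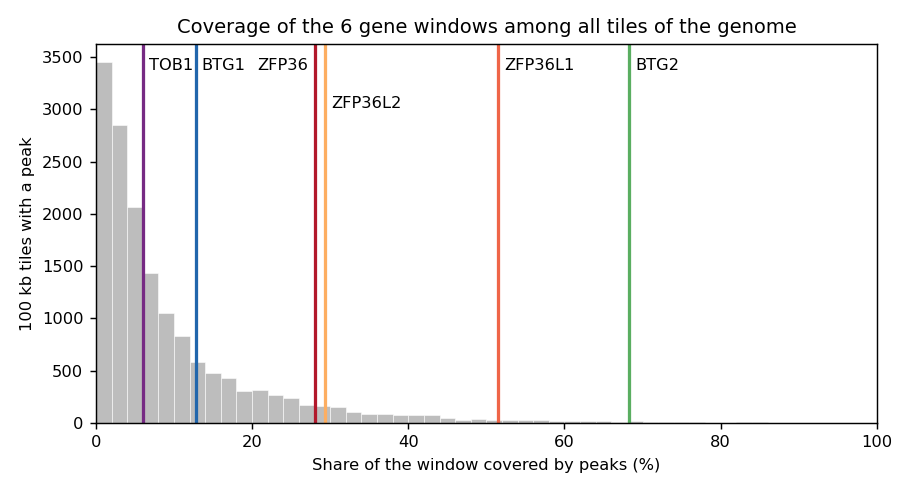
Number of 100 kb tiles of the genome with at least 1 peak (y axis) by the share of the tile covered by peaks in % (x axis), with a coloured line at the share of each gene's window. TOB1 (6.05%) stands near the median tile, BTG1 (12.8%) just above the upper quartile of 12.0%, and ZFP36L1 (51.5%) and BTG2 (68.3%) in the sparse right tail.

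Joining peaks within 12500 bp and ranking the regions by summed fold times width put 4 of the 6 genes in large domains. Of all regions, 5.57% were large. That is a share of regions, many of them short, and not the rate at which genes with a peak fall in one. A region counts as large past the point where the curve of ranked values turns steep. The domain of ZFP36L1 ranked 7 and that of BTG2 (chr1:203236680-203308679, 72.0 kb, 2 peaks) ranked 106. ZFP36L2 (chr2:43414380-43456673, 42.3 kb, 3 peaks) and ZFP36 (chr19:39880398-39905778, 25.4 kb, 2 peaks) were close to each other at ranks 520 and 530 of the 1421 large domains. TOB1 (rank 4489, 16.4 kb) and BTG1 (rank 5981, 22.4 kb) were outside the large domains. Of the 35 window peaks, 21 lay in large domains (60.0%, against 21.1% of all peaks), and 13 of these were in the window of ZFP36L1. The 21 include the outermost upstream peak of the ZFP36 window (chr19:39847064-39847305, fold 2.85), which lay in a large domain other than that of ZFP36.

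**Figure D5:**
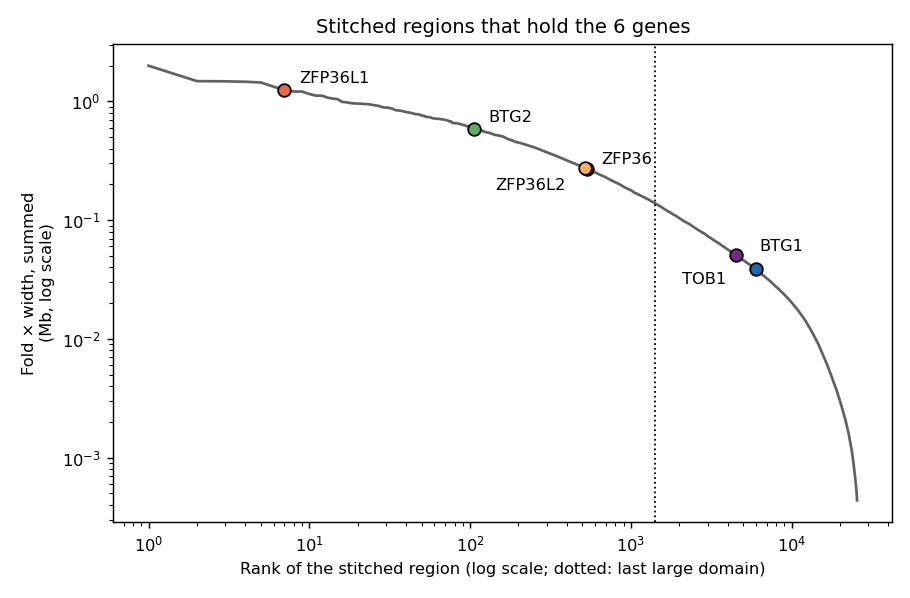
Summed fold times width of each joined region in Mb (y axis, log scale) by rank (x axis, log scale), with the regions that hold the 6 genes as points. ZFP36L1 (rank 7), BTG2 (106), ZFP36L2 (520) and ZFP36 (530) lie left of the dotted line at the last of the 1421 large domains, and TOB1 (4489) and BTG1 (5981) right of it.

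The rank of ZFP36L1 depended on which peaks were joined. With only the peaks of a -log10 q of at least 10, its domain shrank to 2 peaks over 47.5 kb and rank 97, and with joining within 5 kb to 4 peaks over 49.3 kb and rank 123. BTG2, whose domain is nearly all 1 peak, then ranked 49 and 52. The stricter peaks made 15235 regions and the joining within 5 kb made 35140, so ranks do not compare directly between settings. All 4 genes were still in large domains in both cases, and TOB1 and BTG1 still were not.

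Because a fold is a ratio to input, the input level implied by each peak's fold and p-value is given beside it. It was 7.18 at BTG1, 7.26 at ZFP36L2, 7.33 at ZFP36, 8.18 at ZFP36L1, 8.29 at TOB1 and 9.02 at BTG2, all above the median of 6.34 over all peaks. The level is solved from the same fold and p-value and is approximate for broad peaks; its part in the folds was not tested. The implied ChIP level at the peaks, in the same units of overlapping fragments, ran from 67.5 at BTG1 and 90.8 at BTG2 to 127 at ZFP36L1. By this measure ZFP36L1 was again first, followed by TOB1 (119), ZFP36 (112) and ZFP36L2 (98.5).

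The limit of 50 kb cut through runs of peaks at some genes. At ZFP36L1 the last peak inside on the upstream side lay 0.660 kb within the edge (fold 2.30) and the first outside 0.948 kb past it (fold 11.5). At ZFP36 the outermost upstream peak lay 0.305 kb inside (fold 2.85), and the next lay 4.90 kb outside (fold 2.45). A peak of fold 3.90 lay 0.859 kb outside the window of ZFP36L2, and one of fold 6.10 lay 12.7 kb outside that of TOB1. At BTG1 the nearest outside was 29.9 kb past the edge (fold 2.76).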

How the data were processed

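H3K27ac ChIP-seq peaks of 1 LOUCY library against 1 input library were used as deposited. Per the submitters' processing notes, Bowtie2, MACS2 and hg19 were used; Bowtie2 settings: not given in the sources used here. Per the file headers, the authors called broad peaks with MACS2 version 2.1.0.20140616, kept 1 tag per position (a loss of 13.2% in the ChIP and 3.07% in the input library, which caps the tallest peaks) and scaled the larger library down. The fold enrichment the authors deposited is the ratio of pileup over local input per peak, and both deposited significance columns hold -log10 values (of the p-value and of the q-value). The deposited pileup was below 0 in every row, a score of no use, and was left out.

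From these, peaks were assigned to the 6 gene bodies (rounded to 1 kb) and 50 kb either side by an overlap of 1 bp, ranked among all peaks, joined within 12500 bp, and set beside tiles of 100 kb and 5 kb. The cut for large domains is where the curve of ranked values, scaled to the unit square, has slope 1. The implied input level is the one that makes fold and Poisson p-value of a peak fit together, with a pseudocount of 1. The solver gave back levels simulated with the same formula, which does not test whether the deposited peaks follow that formula. The level is approximate for broad peaks. All 6 genes were named, with the strongest, widest, gene-touching and nearest peaks of each window and, around ZFP36L1, the 5 strongest and 3 widest; members and lists were chosen with earlier results of these data known. Bands came from circlize 0.4.16. Promoter sequences and gene order are RefSeq GRCh38.p14, used without its coordinates on hg19. The planned protein comparison and the lists of other RNA-decay and marker genes were not analysed here. Scripts ran in Python 3.11.15 (scipy 1.17.1, numpy 2.4.6, matplotlib 3.10.9, pandas 2.3.3).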

Additional observations from a re-analysis of the deposited data

How the results depend on the processing

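Thresholds and windows changed how many peaks were counted, while at least 1 peak per gene stayed; the weaker BTG1 peak was lost at both stricter thresholds. With a -log10 q of at least 10, as with a fold of at least 4, 16 of 35 peaks were left, their median fold went from 3.68 to 8.29 and the covered share of the 6 windows from 32.7% to 27.7%. With 10 kb either side there were 10 peaks (median fold 8.77, 58.5% covered), and with 100 kb 70 (2.89, 26.3%). Counting a peak by its midpoint left 34, with a median fold of 3.50 and 32.5% covered. Peaks of fold 6 or more numbered 13, against 6 at 10 or more. All 6 genes kept a peak under both stricter thresholds, and 4 had a single peak over 50% or more of the body. The large domains held 4 genes under all 4 alternatives, though ranks moved: ZFP36L1 between 3 and 123, BTG2 between 49 and 134, ZFP36 between 371 and 1322, ZFP36L2 between 368 and 1082. The number of regions ranked also differed between settings, from 15235 to 35140, so these ranks are not on the same scale. No paired analysis was possible because each group had a single library. Neighbouring ranks have no replicate check, and which gene a peak acts on was not tested.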
